A study of Ovis aries with 14 samples.

Results

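Preterm lambs (Ovis aries) given invasive mechanical ventilation (IMV) were compared with preterm lambs given noninvasive respiratory support (NRS), both after 3 days of support. The comparison rests on 6 of the 14 deposited lung libraries, 3 lambs in each group, chosen by their sample titles and not by any measured value. In IMV a tube in the trachea delivers breaths under pressure. In NRS the lamb was not intubated and was supported through a mask. All 6 lambs were labelled gd134 (gestation day), and RNA came from the right lower lung lobe. The labels give no breed, sex or litter and no drug treatment. Every lamb has an identifier of its own, ending in 17 for IMV replicates 1 and 2 and in 18 for IMV replicate 3 and all 3 NRS lambs. Untreated lungs served as reference levels: fetal start (n = 3, labelled gd127, gd128 and gd131), fetal end (n = 3, gd134, gd135 and gd136) and term (n = 2, gd150).

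The preterm lung at this age is still forming its distal air spaces, and alveoli arise later, as septa grow out from the walls of the saccules. Alveolar type 2 cells make surfactant, alveolar type 1 cells spread to form the gas-exchange surface, and capillaries and elastic fibres extend with the septa. Prolonged invasive ventilation of preterm lungs is known for large, simplified distal air spaces, and noninvasive support is used to reduce that injury. The count table gives Ensembl gene identifiers and does not pair them with gene names, and 0 of its 27054 identifiers matched a name in the reference table used here. Genes are therefore described by identifier and by where their level stood in the other lungs, the tissue could not be checked against cell markers, and no list of pathway genes could be read. In whole lung tissue a lower level cannot be assigned to fewer cells of a type or to less RNA per cell, which cannot be told apart.

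Deposited counts summed to between 23267448 and 31586235 in the 6 libraries. IMV totals were 28006053, 31586235 and 27874232 for replicates 1, 2 and 3, and NRS totals were 27869009, 23267448 and 25919561. Each IMV total was above each NRS total (exact two-sided permutation p = 0.1, the smallest that 3 against 3 lambs allow). The number of genes with at least 10 counts overlapped between the groups, at 15959 ± 300 after IMV and 15844 ± 261 after NRS (SD, n = 3 each, exact two-sided permutation p = 0.7). The 100 genes with the most counts took a larger share of each IMV library, 24.2% to 25.1%, than of each NRS library, 22.1% to 23.2% (exact two-sided permutation p = 0.1).

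Lambs of different groups differed from each other by little more than lambs of the same group. Over the 17069 genes tested, the median absolute difference in log2 CPM (CPM being counts scaled to a common library size) was 0.213 to 0.253 between IMV lambs and 0.213 to 0.265 between NRS lambs. It was 0.215 to 0.295 over the 9 pairs of 1 IMV and 1 NRS lamb, with a median of 0.266. The closest between-group pair was IMV replicate 2 with NRS replicate 1, and the farthest was IMV replicate 2 with NRS replicate 2. Between 1504 and 1944 genes differed by over 2-fold within pairs of IMV lambs, 1416 to 1799 within pairs of NRS lambs, and 1375 to 2631 in pairs across the groups. The spread per gene was similar in both groups, with a median SD of 0.2 log2 CPM after IMV and 0.205 after NRS (n = 3 each).

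The first principal component of the 6 lungs held 29.9% of the variance and placed the 3 IMV lambs on one side of the 3 NRS lambs. IMV replicates 1, 2 and 3 scored 14.9, 31.8 and 37.1, and NRS replicates 1, 2 and 3 scored -3.2, -59.1 and -21.4. The groups did not overlap on it, with means of 27.9 ± 11.6 and -27.9 ± 28.5 (SD, n = 3 each, exact two-sided permutation p = 0.1). NRS replicate 2, the shallowest library, lay farthest out, and NRS replicate 1 lay nearest to the IMV lambs. The second component (20.9%) spread the IMV lambs from -36.4 to 52.3 and did not separate the groups.

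**Figure D1:**
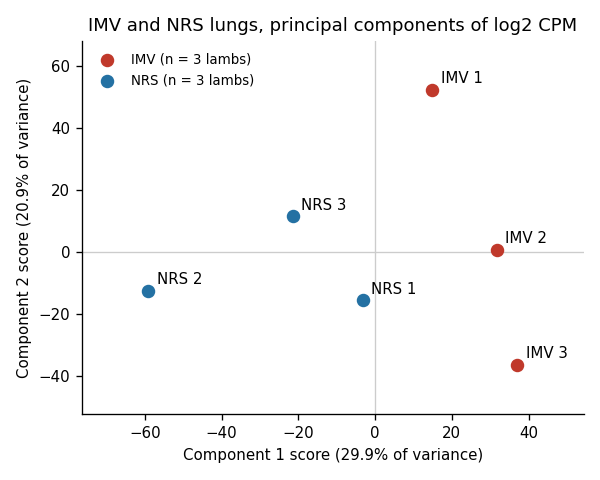
Scores of the 3 IMV lambs and the 3 NRS lambs on the first (horizontal, 29.9% of variance) and second (vertical, 20.9%) principal component of log2 CPM, 1 point per lamb. IMV lambs lie between 14.9 and 37.1 on the first component and NRS lambs between -59.1 and -3.2.

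The direct comparison asked which genes differ between lungs kept for 3 days on a ventilator and lungs supported through a mask. No single gene passed: 0 of 17069 genes (0%) had an adjusted p under 0.05 in the edgeR quasi-likelihood test with Benjamini-Hochberg adjustment, and the smallest adjusted p was 0.36. At an unadjusted p under 0.05 there were 1854 genes (10.9% of those tested), 1024 higher (6%) and 830 lower (4.86%) after IMV. The edgeR adjusted p of these genes ran from 0.36 to 0.46. DESeq2, run on the same 14 libraries, called 82 genes higher (0.583% of the 14057 genes it adjusted) and 53 lower (0.377%) after IMV at an adjusted p under 0.05, together 0.96%. All of these had an unadjusted p under 0.05 in edgeR. The IMV and NRS lambs did not overlap in any but 1 of them, and 63 differed by 2-fold or more. Over all genes tested, 19.1% did not overlap and 7.03% differed by 2-fold or more in edgeR. A call by low p itself favours genes whose groups do not overlap. The low-p list depended on single lambs and on the identifiers: its count was 1216 without NRS replicate 2, and 945 with the ending of the animal identifier as a covariate, of which 694 were among the 1854. All fetal end lambs, and no others, have identifiers ending in 19, so that covariate adjusted only for 17 against 18.

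Most genes stood at nearly the same level after both kinds of support. The log2 fold change (IMV minus NRS) had quartiles of -0.184 and 0.191 with a median of 0.004, and 83% of genes differed by less than 1.5-fold. The 95% interval of the difference, not adjusted for the number of genes, had a median half-width of 0.455 on the log2 scale. For 11041 genes (64.7%) this interval lay wholly inside a 2-fold difference in either direction, and for the others it reached past 2-fold. By size alone, 1200 genes (7.03%) differed by 2-fold or more, 691 higher (4.05%) and 509 lower (2.98%) after IMV. The groups overlapped in 702 of these 1200 genes, and 242 genes (1.42%) differed by 4-fold or more. No overlap in either direction was seen in 3266 genes (19.1%), 1598 with IMV above (9.36%) and 1668 with IMV below (9.77%).

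Large differences sat in genes of low level and low p-values in genes of higher level. Among 2645 genes with a mean under 0 log2 CPM, 26% differed by 2-fold or more and 6.5% had an unadjusted p under 0.05, with a median interval half-width of 1.49. Among 5364 genes between 4 and 6 log2 CPM, 1.7% differed by 2-fold or more and 11.1% had an unadjusted p under 0.05, with a half-width of 0.309. Among the 585 genes at 8 log2 CPM or more, 14.4% had an unadjusted p under 0.05, 49 higher and 35 lower after IMV. The median difference of those 84 abundant genes was 0.393 on the log2 scale, whatever its sign, and 1 of the 585 reached 2-fold.

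**Figure D2:**
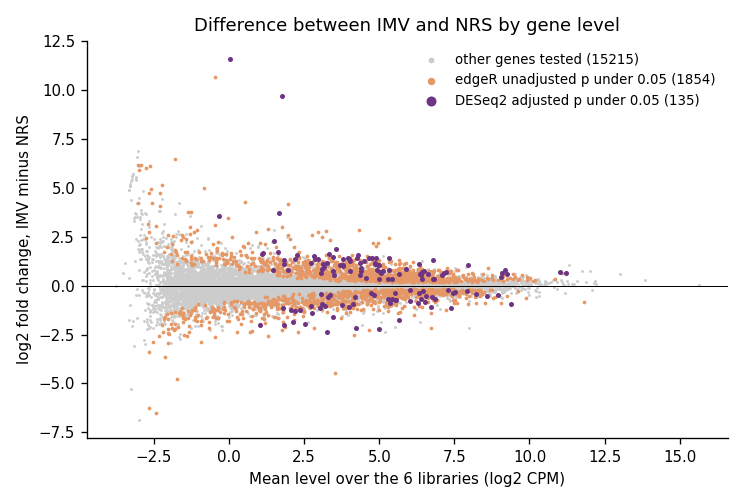
Each point is a gene: mean level over the 6 libraries in log2 CPM (horizontal) against the log2 fold change, IMV minus NRS (vertical), for the 17069 genes tested. Colours mark the 1854 genes with an unadjusted edgeR p under 0.05 and those called by DESeq2; the vertical spread narrows from left to right, and the low-p genes lie on both sides of 0.

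The 4 genes named here are those with the smallest p in each direction whose mean over the 6 lambs reached 1 log2 CPM and whose groups did not overlap. None of the 4 passed the adjusted threshold in edgeR. ENSOARG00000008321 had 46.4, 37.2 and 40.5 CPM in IMV replicates 1, 2 and 3, and 25.6, 25.5 and 26.3 CPM in NRS replicates 1, 2 and 3. Every IMV lamb was above every NRS lamb, and the NRS lambs varied by an SD of 0.429 CPM. The log2 fold change was 0.68 ± 0.10 (SE, 95% interval 0.46 to 0.91), with an edgeR adjusted p of 0.36 and a DESeq2 adjusted p of 3.3e-05. In the reference lungs it stood at 57.4 ± 0.71 CPM at fetal start, 46.0 ± 5.33 at fetal end (SD, n = 3 each) and 28.1 ± 1.30 at term (SD, n = 2). Every NRS lamb was below every term lung, and the IMV lambs overlapped with the fetal end lungs.

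ENSOARG00000017587 had 3.27, 3.92 and 3.81 CPM in IMV replicates 1, 2 and 3 and 1.30, 1.38 and 0.853 CPM in NRS replicates 1, 2 and 3. Each IMV lamb was above every lung of every other group, the highest of which was a fetal start lamb at 3.06 CPM. The log2 fold change was 1.63 ± 0.30 (SE, 95% interval 0.98 to 2.28), with an edgeR adjusted p of 0.36 and a DESeq2 adjusted p of 0.00152. Reference levels were 2.39 ± 0.73 CPM at fetal start, 1.78 ± 0.24 at fetal end (SD, n = 3 each) and 1.13 ± 0.26 at term (SD, n = 2). The NRS lambs lay around the term level and below every fetal lung.

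ENSOARG00000012938 was lower after IMV, at 83.1, 78.7 and 72.5 CPM in replicates 1, 2 and 3 against 102, 103 and 129 CPM in NRS replicates 1, 2 and 3. The groups did not overlap. Its log2 fold change was -0.51 ± 0.10 (SE, 95% interval -0.73 to -0.29), with an edgeR adjusted p of 0.36 and a DESeq2 adjusted p of 0.00413. It stood at 98.9 ± 4.85 CPM at fetal start, 79.1 ± 5.73 at fetal end (SD, n = 3 each) and 117 ± 2.84 at term (SD, n = 2). The IMV lambs overlapped with the fetal end lungs. The NRS lambs spanned the term lungs, and NRS replicates 1 and 2 lay within the range of the fetal start lungs (95.3 to 104.4 CPM).

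ENSOARG00000013455 had 1.03, 1.40 and 0.606 CPM in IMV replicates 1, 2 and 3 and 3.57, 5.64 and 3.02 CPM in NRS replicates 1, 2 and 3. Each NRS lamb was above each IMV lamb. The log2 fold change was -2.00 ± 0.41 (SE, 95% interval -2.89 to -1.12), with an edgeR adjusted p of 0.36 and a DESeq2 adjusted p of 0.00413. Fetal start lungs had 1.17 ± 0.35 CPM, fetal end lungs 1.38 ± 0.13 (SD, n = 3 each), and the term lungs 2.91 and 1.30 CPM. All 3 NRS lambs were above all 8 reference lungs, while the IMV lambs lay near the fetal level.

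**Figure D3:**
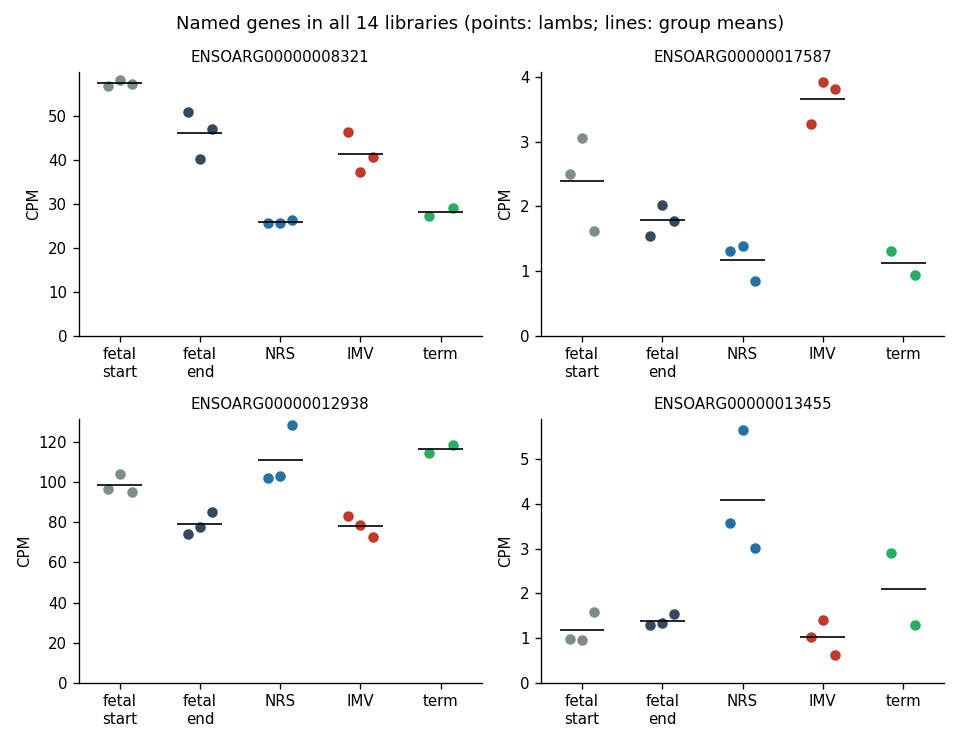
CPM (vertical, from 0) of the 4 named genes in all 14 libraries, by group; points are lambs and lines are group means. For ENSOARG00000008321 and ENSOARG00000017587 the NRS lambs sit near the term lungs. For ENSOARG00000012938 they span the term lungs and overlap with the fetal start lungs, and for ENSOARG00000013455 they sit above all other lungs.

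A further 3 genes, singled out after their values had been seen, were present in every IMV lamb and nearly absent in every NRS lamb. ENSOARG00000025367 had 1729, 2322 and 2796 counts in IMV replicates 1, 2 and 3 and 5, 1 and 1 in NRS replicates 1, 2 and 3. Scaled for depth, the summed counts had a ratio of 890 (exact 95% interval 432 to 2220, for counting error alone). ENSOARG00000024320 had 331, 408 and 506 counts in the IMV lambs and 0 in all 3 NRS lambs, at least 378-fold higher against a floor of 3 counts over the NRS group. ENSOARG00000023683 had 151, 203 and 288 counts against 0, at least 195-fold higher by the same floor. None passed in edgeR with all 14 libraries (adjusted p = 0.36 each). In DESeq2 the adjusted p was 0.0124, 0.0167 and 0.0612 in this order, and in an edgeR fit of only the 6 lambs the first and second passed (adjusted p = 0.000574 and 0.0255).

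The same 3 genes were also present or absent among untreated lungs. ENSOARG00000025367 had 60 CPM or more in 8 of the 14 lambs and 0.171 CPM or less in the other 6. It was present in 2 of 3 fetal start lambs, 2 of 3 fetal end lambs and 1 of 2 term lambs, so the pattern varied between lambs that had received no support. Among the supported lambs it was present in 3 of 3 after IMV and 0 of 3 after NRS. The labels do not give the lambs' sex, litter or breed, so whether the groups differed in these could not be checked. Among these 6 lambs the presence of these genes and the kind of support cannot be told apart, for any gene. Over all 14 lambs, 21 of the 17069 genes (0.123%), these 3 included, were separated without overlap by this presence, and each of them thereby also separates IMV from NRS lambs. With presence as a covariate in the fit of all 14 libraries, 0 genes passed (smallest edgeR adjusted p = 0.375) and 1577 had an unadjusted p under 0.05, of which 707 were higher and 870 lower after IMV. Of the 1854 genes, 1840 kept their direction and 598 kept an unadjusted p under 0.05.

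**Figure D4:**
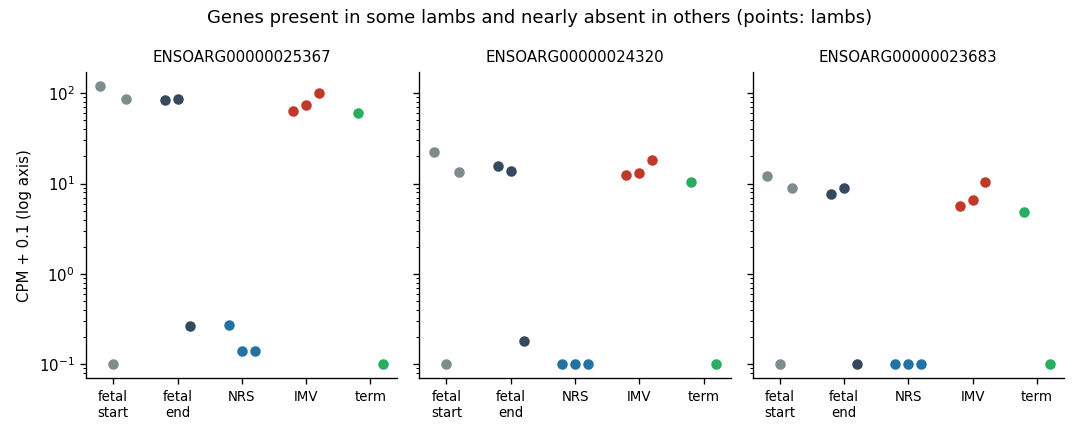
CPM plus 0.1 on a log axis (vertical) of ENSOARG00000025367, ENSOARG00000024320 and ENSOARG00000023683 in all 14 libraries, by group, 1 point per lamb. All IMV lambs sit high and all NRS lambs low, while fetal start, fetal end and term each hold lambs of both kinds.

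Fetal and term lungs were then used to place the genes that differed most. As 0 genes passed, the planned description of called genes was made for the 1854 genes with an unadjusted p under 0.05, with no test. The NRS mean was nearer than the IMV mean to the fetal end mean for 1227 of them (66.2%), against 57.4% of all genes tested. It was nearer to fetal start for 1104 (59.5%, against 53.4%) and nearer to term for 1235 (66.6%, against 59.2%). This did not hold for every subset. For 61.5% of the 218 genes of low p lower after IMV by 2-fold or more, the NRS mean was nearer to fetal end. It was nearer to fetal start for 45.4% and to term for 50%. Over all tested genes lower after IMV these shares were 58.8%, 52.6% and 60.5%. For 53.5% of the 297 genes of low p higher after IMV by 2-fold or more, the NRS mean was nearer to fetal end. It was nearer to fetal start for 69.4% and to term for 59.6%. Over all tested genes higher after IMV these shares were 56.1%, 54.1% and 58%. The 1024 genes higher after IMV had a median of 0.39 log2 CPM above fetal end after IMV and 0.20 below it after NRS (-0.20). The 830 genes lower after IMV had medians of -0.38 after IMV and 0.12 after NRS. Both medians come from the same fetal end lambs.

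Each gene was also placed against the whole range of the 6 fetal lungs. Among the 1854 genes of low p, all 3 IMV lambs lay outside that range on 1 side for 528 (28.5%), and all 3 NRS lambs for 277 (14.9%). Over all 17069 genes these counts were 2604 (15.3%) and 1867 (10.9%). The order was the other way in the 218 genes lower after IMV by 2-fold or more, with IMV lambs outside for 43 (19.7%) and NRS lambs for 53 (24.3%). After IMV 293 of the 528 genes lay above and 235 below the fetal range, and after NRS 146 of the 277 lay above and the others below. For 190 of the 1854 genes the IMV lambs were outside the range and all 3 NRS lambs within it, and for 95 the NRS lambs were outside and all 3 IMV lambs within. Both groups lay outside on the same side for 50 genes and on opposite sides for 2. Over all 17069 genes, IMV lambs alone were outside for 274 and NRS lambs alone for 163. Both groups were outside on the same side for 909 of the 17069 and on opposite sides for 2. Choosing genes by the difference of IMV and NRS itself favours the classes with 1 group alone outside. In these 6 lambs the presence of ENSOARG00000025367 coincides with the kind of support, and its part in these counts was not tested. In the 598 genes that kept a low p with this presence as a covariate, the IMV and NRS counts were nearer to each other. All 3 IMV lambs were outside for 165 of them and all 3 NRS lambs for 142, and IMV lambs alone were outside for 55 and NRS lambs alone for 52. Single lambs also moved the counts: with NRS replicate 1 left out, so that a class needed only the other NRS lambs, they were 250 for IMV alone and 147 for NRS alone.

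Term lungs stood differently in the 2 kinds. Their levels did not enter the difference of IMV and NRS, but their libraries shared the filter, the scaling and the estimate of the spread. Of the 95 genes outside the fetal range after NRS alone, both term lungs lay outside it on the same side for 60 (63.2%), both lay within it for 11, and the term mean was on that side of the fetal mean for 94.7%. Of the 190 genes outside it after IMV alone, both term lungs lay outside on the same side for 45 (23.7%), both lay within it for 63, and the term mean was on that side of the fetal mean for 71.6%. Without regard to p the shares were 52.8% of 163 genes for NRS alone and 23.4% of 274 genes for IMV alone. They were nearer to each other when the other group could lie anywhere, at 70.5% of the 1867 genes outside the fetal range after NRS and 52.2% of the 2604 outside it after IMV. Genes are not replicates, so these shares carry no test. With any 1 of the 6 lambs left out, the shares ran from 56% to 67.5% for NRS alone and from 19.5% to 25.3% for IMV alone. Among the 598 genes above they were 61.5% (32 of 52) and 23.6% (13 of 55). Both term lambs and all 3 NRS lambs have identifiers ending in 18, and IMV replicates 1 and 2 have 17. Among the 694 genes that kept a low p with this ending as a covariate, the shares were 55.8% (29 of 52) and 33.8% (26 of 77).

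The 4 classes of such genes had the following sizes and levels. The choice of the genes fixed that IMV and NRS lambs stood apart in them, so their levels are a description and the term levels are the values it did not set. In 97 genes IMV lambs lay above the fetal range, with median levels of 0.49, 0.55 and 0.69 log2 CPM over the fetal mean in IMV replicates 1, 2 and 3, while NRS lambs stood at 0.10, -0.03 and 0 and term lungs at 0.27 and 0.21. In 93 genes IMV lambs lay below it, at -0.42, -0.37 and -0.36, while NRS lambs stood at -0.09, -0.02 and -0.03 and term lungs at -0.13 and -0.03. In the IMV-alone classes the term medians stood between the fetal mean and the IMV medians. In 51 genes NRS lambs lay below the range, at -0.53, -0.68 and -0.57, with IMV lambs at -0.07, -0.06 and 0.01 and term lungs at -0.56 and -0.69. In 44 genes NRS lambs lay above it, at 0.68, 0.72 and 0.67, with IMV lambs at 0.07, 0.09 and -0.01 and term lungs at 0.47 and 0.41. In the 44 genes the term medians likewise stood between the fetal mean and the NRS medians, and in the 51 genes they lay close to the NRS medians. In all 4 classes the term medians were on the side of the group outside the fetal range.

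**Figure D5:**
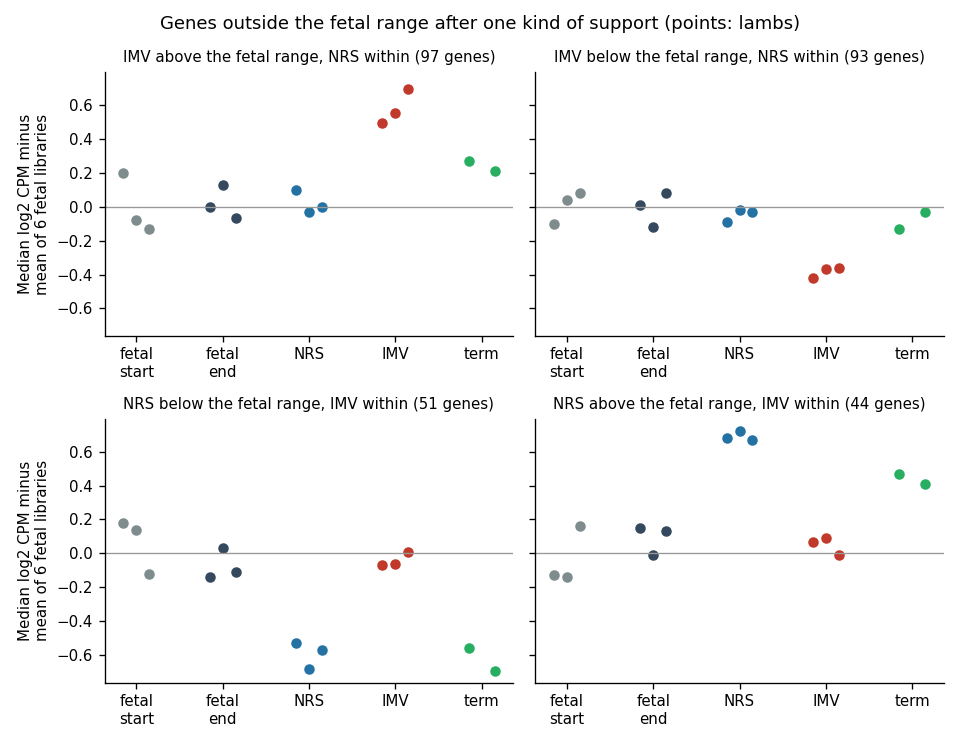
Median level (vertical, log2 CPM minus the mean of the 6 fetal libraries) of the genes in 4 classes, by group, 1 point per lamb. The choice of genes sets the IMV lambs away from 0 in the upper panels (0.49 to 0.69 and -0.42 to -0.36). It sets the NRS lambs away from 0 in the lower panels (-0.68 to -0.53 and 0.67 to 0.72). In all 4 panels the term lungs lie on the same side of 0 as the lambs set apart.

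The genes that DESeq2 called were placed in the same way. All 3 IMV lambs lay outside the fetal range for 61 of them (45.2%) and all 3 NRS lambs for 33 (24.4%). Over all genes tested these shares were 15.3% and 10.9%, and the call itself favours genes in which the groups stand apart. Of the 82 higher after IMV, 39 had all IMV lambs above the fetal range and 14 had all NRS lambs below it. Of the 8647 tested genes higher after IMV, 1140 and 540 did so. Of the 53 lower after IMV, 20 had all IMV lambs below the range and 18 had all NRS lambs above it. Of the 8421 tested genes lower after IMV, 995 and 745 did so. For 43 of these 53 genes (81.1%) the NRS mean was nearer to term, against 60.5% of all tested genes lower after IMV. Over all 53 genes the median signed difference from term was -0.02 log2 CPM after NRS and -0.62 after IMV. The median distance from term, whatever its sign, was 0.15 after NRS and 0.62 after IMV. Over all tested genes lower after IMV, the signed medians were 0.02 after NRS and -0.16 after IMV, and the distances 0.19 and 0.25. The part of the identifier ending that term and NRS lambs share was not tested for these 53 genes. The NRS mean was nearer to fetal start for 27 of the 53 (50.9%) and to fetal end for 30 (56.6%), against 52.6% and 58.8% of all tested genes lower after IMV. For the 82 higher genes the NRS mean was nearer to term in 46 (56.1%), close to the 58% of all tested genes higher after IMV. It was nearer to fetal start in 53 (64.6%, against 54.1%) and to fetal end in 52 (63.4%, against 56.1%).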

How the data were processed

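The deposited table holds whole-number counts per Ensembl gene for 14 libraries, which the authors did not normalize. Libraries were made with a stranded total RNA kit, per the labels' protocols. Tools listed in the submitters' processing notes, without their role, are featureCounts 1.6.3, STAR 2.7.0f, cutadapt 1.16, DESeq2 1.22.2, Subread and bcl2fastq, and the build is Oar_v3.1. No source used here gives the annotation release, the strand setting or the handling of multi-mapping reads, so overlapping, antisense and near-identical genes are uncertain.

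Groups came from sample titles. Counts of all 14 libraries entered 1 edgeR 4.0.16 fit (R 4.3.3, limma 3.58.1, TMM scaling, quasi-likelihood F test, 5 group means, 9 residual degrees of freedom). Low-count genes were removed with filterByExpr (count minimum 10): 17069 stayed, holding 99.97% of counts, and 9985 were left out, 4198 of them with no count. Standard errors are the log2 fold change over the square root of F. The log2 CPM values add a prior count of 2. DESeq2 1.42.0 left the adjusted p of 3012 genes undefined. Calls need an adjusted p under 0.05. The procedure was tested on simulated data. Named genes are the 2 of smallest p in each direction with no overlap and a mean of at least 1 log2 CPM. The comparison and the rules were chosen with earlier results of these data known. Chi-square per degree of freedom between lambs of a group was 32.2 to 54.2, so no library repeats another.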

Additional observations from a re-analysis of the deposited data

How the results depend on the processing

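In edgeR, 0 genes passed between IMV and NRS with RLE scaling, with no low-count filter, with an adjusted threshold of 0.10, with the animal identifier suffix as a covariate and with the on-off covariate. DESeq2 called 0.96% of the genes it adjusted (82 higher, 53 lower), and a fit of only the 6 lambs called 0.0125% (2 higher). Leaving out 1 lamb gave 0 to 2 genes higher and 0 to 1 lower, or 0% to 0.0118% of the genes tested. The 1 came without IMV replicate 2, ENSOARG00000008077, with 1 count in both remaining IMV lambs, 503 in the one left out and 356 to 530 in NRS lambs (edgeR adjusted p = 3.06e-06). The 2 came without NRS replicate 1, ENSOARG00000000744 and ENSOARG00000019143 (edgeR adjusted p = 0.0434 and 0.0251). The first had 6508 counts in the lamb left out, 2602 and 2975 in the other NRS lambs and 6707 to 8071 in IMV lambs. The second had 1166 in the lamb left out, 457 and 537 in the other NRS lambs and 1053 to 1397 in IMV lambs. The count at an unadjusted p under 0.05 was 945 with the suffix covariate (576 higher, 369 lower; 694 of the 1854 genes kept it) and 1216 to 1847 with 1 lamb left out, lowest without NRS replicate 2. The on-off covariate was added after the data were seen. With the replicate number as a block 0 genes passed and 1717 had an unadjusted p under 0.05. Deviations of same-numbered lambs correlated at -0.152, -0.002 and -0.057. Taken from means of 3 lambs, these values cannot settle whether such lambs share more than a number. The 4 named genes kept their direction in all 13 fits each. Their choice by low p and no overlap in these same lambs largely fixed that in advance, above all with 1 lamb left out. Each passed in DESeq2 alone, and elsewhere the highest edgeR adjusted p was 0.704. With 1 lamb left out the log2 fold change ran from 0.59 to 0.75 for ENSOARG00000008321, 1.45 to 1.76 for ENSOARG00000017587, -0.57 to -0.40 for ENSOARG00000012938 and -2.31 to -1.70 for ENSOARG00000013455. IMV was nearer to fetal end for 627 of the 1854 genes, for 626 with a prior count of 0.5, and for 602 to 682 with 1 lamb left out. With 1 lamb left out, IMV lambs alone were outside the fetal range for 238 to 274 genes and NRS lambs alone for 114 to 147. With 3 lambs a group, low-level genes were measured least precisely.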

Other observations

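Single lambs stood far from the others of their own group for some genes. Among genes reaching 3 CPM in any of the 6 lungs, 109 had 1 lamb more than 8-fold from both others of its group, on log2(CPM + 0.1). IMV replicates 1, 2 and 3 were the low lamb for 7, 5 and 13 genes and the high lamb for 23, 20 and 14. NRS replicates 1, 2 and 3 were the low lamb for 1, 16 and 5 genes and the high lamb for 4, 9 and 5. Of these 109 genes, 66 were among the 1200 that differed by 2-fold or more between the groups. Of the same 109, 40 were among the 242 that differed by 4-fold or more. In edgeR 23 had an unadjusted p under 0.05, and 1 was called by DESeq2. Over all 17069 genes tested, 7.03% differed by 2-fold or more, 1.42% by 4-fold or more, and 10.9% had an unadjusted p under 0.05. DESeq2 called 0.96% of the genes it adjusted.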
